A study of Mus musculus with 23 samples.

Results

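The comparison set 6 samples of Nr3c2 knockout mice fed a low-potassium diet (KO-LK) against 6 samples of control mice fed a high-potassium diet (CT-HK). These are the extremes of the study, with receptor knockout induced and least dietary potassium at one end. At the other end knockout was not induced and dietary potassium was highest. The 12 samples are all those labelled with these 2 groups, out of 23 in all. Each sample was connecting tubule and cortical collecting duct, microdissected from mouse kidney and sequenced as RNA. All groups, controls included, carried Pax8-rtTA, TRE-LC-1 and MRflox/flox: a doxycycline-dependent activator expressed along the renal tubule under Pax8, a Cre gene that this activator switches on, and a floxed gene for the mineralocorticoid receptor. Knockout was induced over 2 weeks with doxycycline at 2 mg/ml in the drinking water, which held 5% sucrose, and a washout of 2 weeks on a rescue diet followed. Control mice drank the 5% sucrose water alone. The diets then lasted 4 days. The remaining groups were controls (CT-NK, 5 samples) and knockouts (KO-NK, 6 samples) on a normal potassium diet. KO-LK and CT-HK differ in induced knockout, in the doxycycline that induces it and in diet at once, and the part of each cannot be told apart. The labels do not state the age, sex or strain of the mice, whether controls ate the rescue diet, or whether 1 sample stands for 1 animal. The p-values therefore rest on the spread between samples, which may be partly technical.

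The mineralocorticoid receptor, encoded by Nr3c2, is a transcription factor that aldosterone activates in the last segments of the nephron. There it raises the epithelial sodium channel at the luminal membrane, in part through the kinase SGK1, which keeps the ubiquitin ligase NEDD4-2 from removing the channel. Sodium entry through this channel drives potassium secretion, and dietary potassium is itself a stimulus for aldosterone. Principal cells of these segments take up sodium and water and secrete potassium, intercalated cells move acid and base, and connecting tubule cells also reabsorb calcium.

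The 12 samples held 18712084 to 34154116 estimated counts. Values below are CPM, a gene's counts relative to the scaled library total, and each trio gives the lowest, the median and the highest of a group's 6 samples. All 14 principal cell, 12 alpha intercalated and 10 beta intercalated cell markers were detected in all 12 samples, some at few counts (Slc26a7 at most 26). All 25 proximal tubule markers were detected in all 12 samples too, so detection alone does not show which cell types were present. Summed principal cell markers stood at 10402 ± 1178 CPM (SD, n = 6) in KO-LK and 11502 ± 2257 in CT-HK (exact two-sided permutation test, p = 0.344, adjusted over 14 measures of the samples 0.964). Alpha intercalated cell markers stood at 4401 ± 634 CPM in KO-LK and 5520 ± 1095 in CT-HK, with overlapping ranges (exact permutation test, p = 0.0628, adjusted 0.293). Beta intercalated cell markers stood at 3706 ± 376 and 3813 ± 651 CPM (exact permutation test, p = 0.736, adjusted 0.965). CT-HK replicate 6 stood apart. It held 42801 CPM on 25 proximal tubule markers, where the other CT-HK samples held 360 to 1127 CPM and the KO-LK samples 567 to 2242. CT-HK replicate 4 had the highest scaling factor of its group (TMM, a trimmed mean of log ratios to a reference sample), 1.14 against 0.802 to 0.890 in the others, and 4100 CPM on olfactory and vomeronasal receptor genes, which the KO-LK samples held at 389 to 2850. Scaling factors were 1.10 ± 0.128 (SD, n = 6) in KO-LK and 0.887 ± 0.127 in CT-HK (exact permutation test, p = 0.0195, adjusted 0.136). In bulk tubules a lower level from fewer cells of a type and one from less RNA per cell cannot be told apart.

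**Figure D1:**
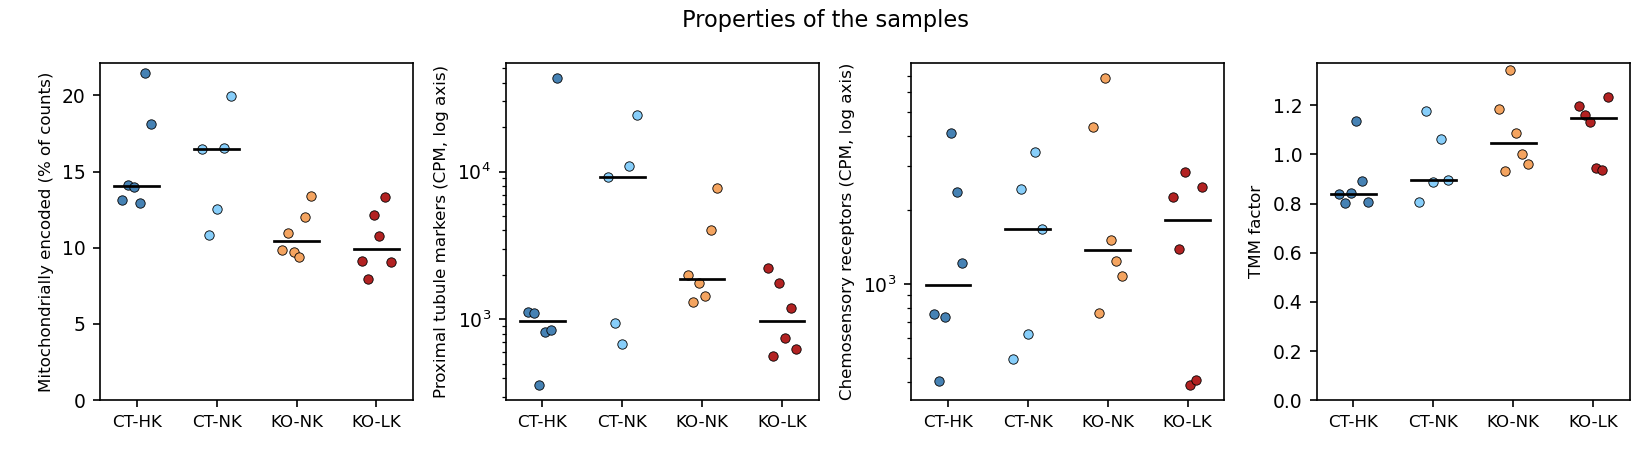
Properties of all 23 samples by group, 1 point per sample and a bar at each group's median: the mitochondrially encoded share of counts (percent), summed proximal tubule markers and summed olfactory and vomeronasal receptor genes (both CPM, log axes), and the TMM scaling factor. CT-HK replicate 6 is the highest point for proximal tubule markers at 42801 CPM, and CT-HK replicate 4 has the highest scaling factor of its group at 1.14.

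Of 25829 genes tested with edgeR's quasi-likelihood test, 1418 (5.49%) differed between KO-LK and CT-HK at an adjusted p under 0.05, 568 (2.20%) higher and 850 (3.29%) lower in KO-LK. Differences of 2-fold or more were called in 323 genes (1.25%) higher and 302 (1.17%) lower. Called or not, 428 genes (1.66%) had all 6 KO-LK values above all 6 CT-HK values and 603 (2.33%) had them all below. Higher genes made up 40.1% of the calls, and this share moved with the scaling: it was 55.8% with an offset for transcript length and 61.2% with another sample as TMM reference. It was 96.6% with limma on log2(TPM + 1), which differs in tool, filter and scale at once, and where the median of all genes was 0.36 in place of -0.01. On that last scale limma called Scnn1g, Kcnj1, Hsd11b2 and Slc26a4 higher (0.80, 0.60, 0.73 and 0.60), which edgeR did not call. Of 116 genes named by rule or by fixed list, 106 were called, and 83 of these kept their call under every alternative that tested them. Most were named because they were called with a small p, so these counts follow from the naming rule and do not describe other genes.

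The targeted gene was lower in KO-LK, and its levels in the 2 groups overlapped. Nr3c2 (ENSMUSG00000031618, GRCm38 chromosome 8, 76899442 to 77245012, plus strand) stood at 34.2, 52.3 and 74.1 CPM in KO-LK and at 70.2, 112 and 145 in CT-HK. The highest KO-LK sample lay above the lowest CT-HK sample, which was the proximal tubule-rich replicate 6. The log2 difference was -0.995 (SE 0.21, adjusted p = 0.00415, edgeR). Counts over the whole gene include exons outside a floxed part, so the remaining level does not measure how much receptor was left. On log2(TPM + 1) the difference was -0.15 (limma, adjusted p = 0.64), and with an offset for transcript length it was -0.62 (edgeR, adjusted p = 0.0547), so the call was lost on both. None of 10 genes for related receptors, chaperones and corticosteroid-metabolising enzymes was called with edgeR, where 1 had an unadjusted p under 0.05. DESeq2 called 1 and limma on log2(TPM + 1) 6. Over all tested genes edgeR called 5.49%, and 15.9% had an unadjusted p under 0.05. DESeq2 called 2413 of 25829 genes and limma 7090 of 19668. Of the 10 genes Hsd11b2, the enzyme that keeps glucocorticoids from the receptor, stood at 787, 1009 and 1469 CPM in KO-LK and 634, 927 and 1363 in CT-HK (log2 difference 0.17, adjusted p = 0.983).

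Sgk1, the aldosterone-induced kinase, had the second smallest p of all genes. RefSeq gives it 6 start windows, and the 1 shown was chosen because it alone holds a full corticosteroid response element. The 250 bases before that start (GRCm38.p6, chr10:21993640-21993889, plus strand) read as follows. In capitals is the full element, the half-site AGAACA followed, after 3 bases of any kind, by its reverse complement TGTTCT.
Sgk1: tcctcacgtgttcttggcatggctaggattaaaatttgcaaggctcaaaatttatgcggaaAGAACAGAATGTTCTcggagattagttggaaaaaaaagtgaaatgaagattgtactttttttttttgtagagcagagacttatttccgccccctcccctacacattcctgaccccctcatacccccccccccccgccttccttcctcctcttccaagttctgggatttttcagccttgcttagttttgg
The element begins 189 bases before the start. The full element, which reads the same on both strands, occurred in 3 of 32851 RefSeq promoters (0.00913%), of which Sgk1 is 1. The half-site alone, on either strand and including those within full elements, occurred in 18.97%. Both shares were counted over windows that also run past the start. A match describes letters and not binding.

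Sgk1 was the most strongly lowered transport regulator. It stood at 30.3, 44.6 and 62.7 CPM in KO-LK and at 648, 811 and 982 in CT-HK. The ranges were far apart, and the fitted fold was 17.7 (log2 difference -4.14, SE 0.36, adjusted p = 2.45e-07, edgeR). Of 20 genes for the sodium channel and its regulators, 2 rose, 6 fell and 12 did not pass the test. Over all tested genes 2.20% rose and 3.29% fell. The list's median was -0.10, beside -0.01 for all genes, and its sign turned to 0.42 with limma on log2(TPM + 1).

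Within the channel itself the subunits differed from each other. Scnn1a, the alpha subunit, stood at 92.4, 113 and 203 CPM in KO-LK and 213, 339 and 575 in CT-HK. The groups did not overlap, with KO-LK replicate 4 nearest to the controls (log2 difference -1.53, SE 0.25, adjusted p = 0.000462). Scnn1b, the beta subunit, stood at 854, 1074 and 1334 CPM in KO-LK and 791, 1170 and 1482 in CT-HK. Scnn1g, the gamma subunit, stood at 1149, 1338 and 1670 CPM in KO-LK and 778, 1228 and 1458 in CT-HK. Both overlapped widely and neither passed the test, with log2 differences of -0.11 (SE 0.22) and 0.24 (SE 0.20), and that of Scnn1b turned positive on log2(TPM + 1) and with another TMM reference. Per transcript length, alpha averaged 71.4 ± 22.8 TPM (SD, n = 6) in CT-HK and 37.9 ± 13.6 in KO-LK, while beta averaged 319 ± 71.4 and 435 ± 66.1 and gamma 265 ± 57 and 455 ± 51.8. Alpha was thus the subunit of lowest TPM in both groups.

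The channel's regulators moved in both directions. Nedd4l, which encodes the ligase NEDD4-2, stood at 361, 422 and 527 CPM in KO-LK and 182, 210 and 236 in CT-HK. All KO-LK samples were higher (log2 difference 1.07, SE 0.18, adjusted p = 0.000413). Prr5l, a partner of the mTORC2 kinase that activates SGK1, rose from 13.5, 15.5 and 18.5 CPM in CT-HK to 37.1, 43.5 and 65.8 in KO-LK, again without overlap (1.59, SE 0.17, adjusted p = 2.9e-06). Usp2, a deubiquitinase that acts on the channel and is also a clock-controlled gene, fell from 165, 224 and 279 CPM to 55.8, 88.2 and 136 (-1.32, SE 0.19, adjusted p = 0.000118). Wnk1, a kinase of the distal salt pathway, fell with overlapping groups, from 198, 367 and 573 CPM in CT-HK to 87.4, 156 and 345 (-1.14, SE 0.28, adjusted p = 0.0142). It was the 1 gene called of 16 in the WNK and SPAK list with edgeR, near the 5.49% of all tested genes. DESeq2 called 4 of the 16.

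**Figure D2:**
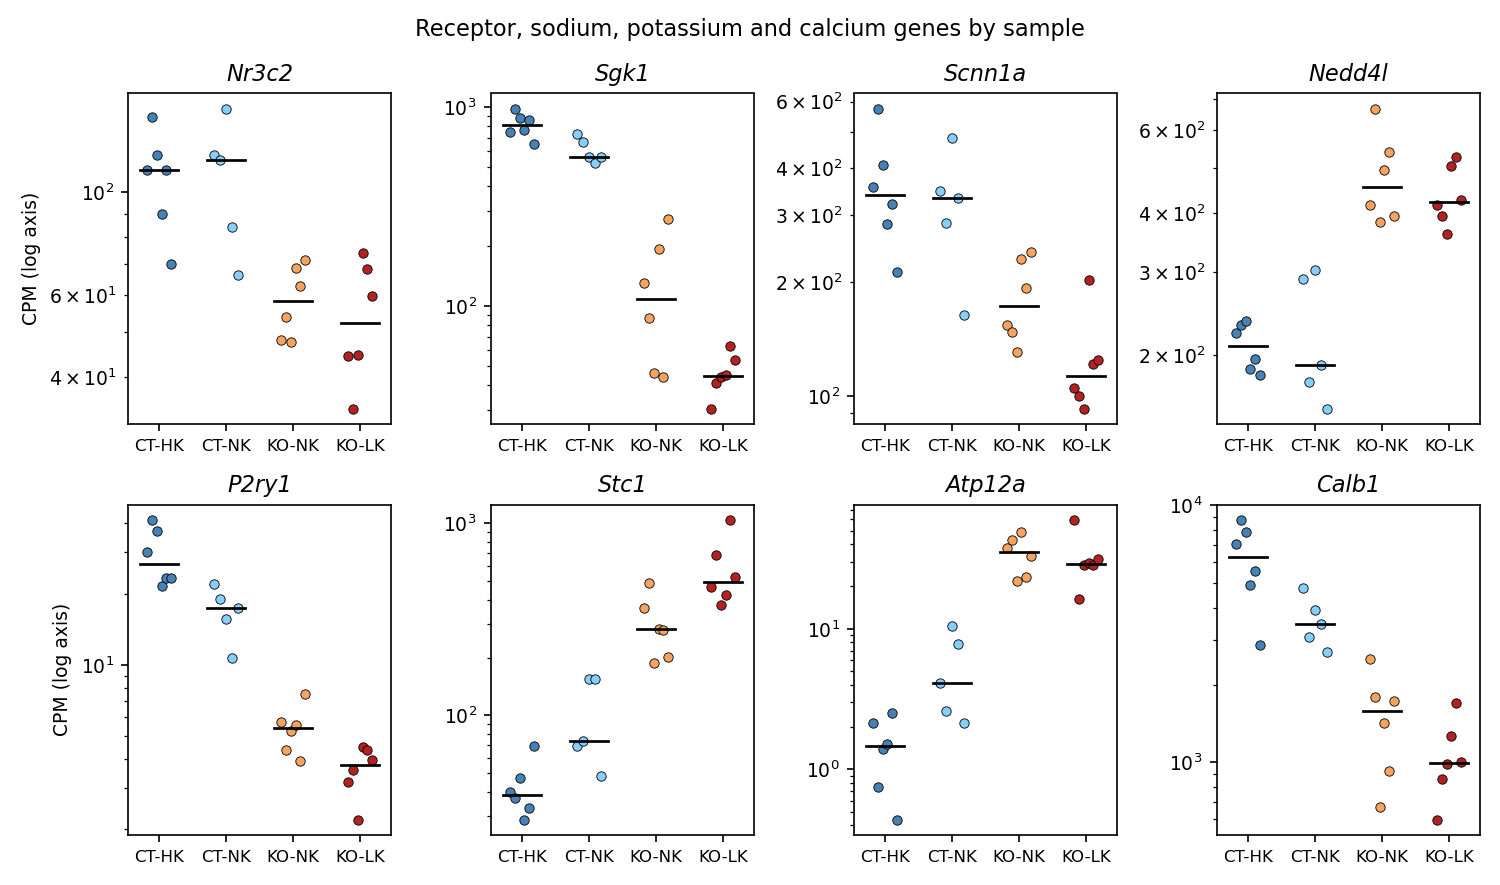
Levels (CPM, log axis) of 8 genes in every sample of the 4 groups, 1 point per sample and a bar at the group median. Sgk1, Scnn1a, P2ry1 and Calb1 are lower and Nedd4l, Stc1 and Atp12a higher in all KO-LK than in all CT-HK samples, while the Nr3c2 ranges overlap at 70.2 to 74.1 CPM.

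Other known corticosteroid targets moved both ways. Of 25 listed, 6 rose, 12 fell and 7 did not pass, with a median of -0.51. The shares over all tested genes were 2.20% higher and 3.29% lower. Klf15, a transcription factor induced by glucocorticoids, stood at 18.8, 24.2 and 28.6 CPM in KO-LK and 73.7, 112 and 128 in CT-HK. Fkbp5, a chaperone that feeds back on steroid receptors, stood at 11.4, 16.8 and 21.0 CPM against 39.2, 80.8 and 98.0. Neither gene overlapped between the groups, with log2 differences of -2.13 (SE 0.20, adjusted p = 6.74e-07) and -2.16 (SE 0.27, adjusted p = 2.33e-05). Edn1, the gene of endothelin-1, a peptide that inhibits sodium uptake in the collecting duct, went the other way, from 1.12, 1.71 and 2.35 CPM in CT-HK to 6.13, 8.91 and 11.9 in KO-LK (2.33, SE 0.31, adjusted p = 5.48e-05). Dusp1, a phosphatase of MAP kinases that is both steroid-induced and an immediate early gene, also rose (1.84, SE 0.29, adjusted p = 0.00027). The list thus held genes that differed in opposite directions in the same samples.

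Among 24 tested potassium channels and pumps, 3 rose, 2 fell and 19 did not pass, where 2.20% of all tested genes rose and 3.29% fell. The gene that differed most was Atp12a, the non-gastric H+,K+-ATPase, which takes up potassium in exchange for protons. It stood at 0.435, 1.46 and 2.52 CPM in CT-HK and at 16.4, 29.0 and 59.9 in KO-LK. All KO-LK samples were above all controls, and the fold was 22.1 (log2 difference 4.47, SE 0.45, adjusted p = 1.19e-06). The highest KO-LK value, in replicate 1, lay well above the other 5. Kcnj1, which encodes the secretory channel ROMK, stood at 705, 872 and 1164 CPM in KO-LK and 541, 893 and 1197 in CT-HK. Kcnma1, the pore of the large-conductance potassium channel, was near the limit of detection at 0.214, 1.58 and 3.78 CPM against 0.248, 1.28 and 5.25. Neither differed beyond its spread, with log2 differences of 0.02 (SE 0.22) and 0.09 (SE 0.72), and both changed sign under some alternatives. For Kcnma1 the SE leaves room for a large change in either direction.

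Fxyd4, a small membrane protein that modulates ion transport in the collecting duct, stood at 252, 311 and 365 CPM in KO-LK and 101, 123 and 213 in CT-HK (1.19, SE 0.29, adjusted p = 0.0138). The ranges did not overlap. The Fxyd4 call was lost without the 2 CT-HK samples richest in proximal tubule transcripts (1.09, adjusted p = 0.104). Kcnj10, a basolateral potassium channel subunit, fell by 0.65 on the log2 scale (adjusted p = 0.0295) with overlapping groups, and this call was lost under 12 alternatives.

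Of 11 genes in the calcium transport list, 2 fell, 1 rose and 8 did not pass, where 3.29% of all tested genes fell and 2.20% rose. The list's median was -0.26, and 0.36 with limma on log2(TPM + 1), where the median of all genes was 0.36 too. Calb1, the calcium buffer calbindin-D28k, stood at 596, 994 and 1704 CPM in KO-LK and 2866, 6320 and 8807 in CT-HK. S100g, calbindin-D9k, stood at 540, 1322 and 2509 CPM against 3381, 7791 and 11636. Neither gene overlapped between the groups (log2 differences -2.53, SE 0.32, and -2.38, SE 0.34, adjusted p = 2.55e-05 and 9.31e-05). The gene that rose was Stc1, the secreted hormone stanniocalcin-1, at 374, 495 and 1046 CPM in KO-LK and 28.5, 38.6 and 69.6 in CT-HK, a 13.8-fold difference (3.78, SE 0.34, adjusted p = 4.03e-07).

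Tissue kallikreins, serine proteases that connecting tubule cells release into the urine, were lower as a family. Of 14 tested, 10 fell, none rose, and all 14 differences were negative, with a median of -2.23 that stayed negative under every alternative. The share of all tested genes that fell was 3.29%. Klk1, the renal kallikrein, stood at 2516, 8167 and 13427 CPM in KO-LK and 12529, 37854 and 47191 in CT-HK. Its ranges overlapped at 12529 to 13427 CPM (-2.01, SE 0.40, adjusted p = 0.00253). Klk1b3 stood at 1.43, 1.65 and 3.51 CPM against 6.31, 13.2 and 18.8, with no overlap (-2.65, SE 0.31, adjusted p = 9.58e-06), and Klk1b24, Klk1b9 and Klk1b5 differed by -2.47, -2.67 and -2.05. These genes lie together on chromosome 7 and are near-identical in sequence, so the counting can split reads among them, and the members are not separate observations.

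The smallest p of all belonged to P2ry1, an ADP receptor. It stood at 2.19, 3.76 and 4.46 CPM in KO-LK and 21.6, 26.8 and 41.4 in CT-HK, so that every KO-LK sample was far below every control (-3.02, SE 0.23, adjusted p = 5.16e-08). Of 17 purinergic genes, 1 rose, 2 fell and 14 did not pass, where 2.20% of all tested genes rose and 3.29% fell. The riser was P2ry14, a UDP-glucose receptor known from intercalated cells, at 17.7, 25.1 and 27.3 CPM against 9.03, 10.5 and 13.8 (1.16, SE 0.21, adjusted p = 0.00127). P2rx4, an ATP-gated channel, had overlapping groups and a difference of -0.49 (adjusted p = 0.0397), which lost its call under 12 alternatives and turned to 0.10 on log2(TPM + 1).

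Gchfr, the protein that lets tetrahydrobiopterin and phenylalanine regulate GTP cyclohydrolase, fell from 29.4, 37.9 and 58.3 CPM in CT-HK to 5.46, 7.33 and 8.35 in KO-LK (-2.50, SE 0.23, adjusted p = 6.29e-07). In this pathway 4 of 8 genes fell and none rose, where 3.29% of all tested genes fell. The other called members, Qdpr, Pcbd1 and Pcbd2, overlapped between groups and differed by -0.88, -0.62 and -0.56, and each lost its call under several alternatives. Leaving out 1 sample gave 1 to 4 calls in the list, at most 2 of them without KO-LK replicate 1, 2, 3 or 6 or CT-HK replicate 1, 2 or 6, with medians of -0.66 to -0.44. CT-HK replicate 6 held Qdpr at 336 CPM.

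Of 13 genes for water channels and vasopressin signalling 1 was called, near the share of 5.49% over all tested genes. Aqp2, the vasopressin-regulated water channel, stood at 1374, 1876 and 2879 CPM in KO-LK and 2980, 3807 and 4559 in CT-HK. All KO-LK samples were lower, yet the difference did not pass the adjusted threshold (-0.94, SE 0.32, adjusted p = 0.0952). It passed with DESeq2 (-0.98, adjusted p = 0.0132) and under 3 other alternatives. Avpr1a, the vasopressin V1a receptor of intercalated cells, was the 1 gene of 13 called, at 72.0, 86.8 and 103 CPM against 30.2, 43.7 and 47.9 (log2 difference 1.05, SE 0.20, adjusted p = 0.00181). Slc26a4, the bicarbonate exchanger pendrin of beta intercalated cells, stood at 1227, 1429 and 1682 CPM against 987, 1451 and 1776 and did not differ beyond its spread (0.02, SE 0.22). Spink8, a protease inhibitor listed with beta intercalated cells, fell from 331, 392 and 494 CPM to 122, 128 and 152 (-1.60, SE 0.21, adjusted p = 3.85e-05). Pendrin and Spink8, both in that cell type's list, thus behaved differently.

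Among 18 junction genes 4 rose and none fell: Cdh3, Cldn4, Cldn6 and Cldn8. Over all tested genes 2.20% rose. Cdh3, P-cadherin, stood at 36.0, 43.6 and 54.6 CPM in KO-LK and 6.13, 7.71 and 9.66 in CT-HK (2.52, SE 0.27, adjusted p = 2.55e-06). Cldn8, which forms paracellular chloride pores with Cldn4 in the collecting duct, stood at 653, 820 and 1373 CPM against 301, 454 and 632 (1.02, SE 0.22, adjusted p = 0.00555), and Cldn4 at 247, 486 and 659 CPM against 97.2, 129 and 350 (1.51, SE 0.31, adjusted p = 0.00299). Cldn4 overlapped only through CT-HK replicate 1, and the Cldn8 call was lost without the 2 CT-HK samples richest in proximal tubule transcripts (0.92, adjusted p = 0.0576).

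Several of the most strongly raised genes fell outside these lists. Rasl11a, a small GTPase, stood at 1.46, 1.72 and 7.44 CPM in CT-HK and 51.3, 90.0 and 124 in KO-LK, a fold of 32.0 (5.00, SE 0.43, adjusted p = 2.45e-07). Its relative Rasl11b rose from 5.73, 7.93 and 11.4 CPM to 37.5, 45.9 and 51.6 (2.39, SE 0.21, adjusted p = 3.08e-07). Neither overlapped between the groups. Egln3, an oxygen-sensing prolyl hydroxylase, rose from 3.94, 4.95 and 7.57 CPM to 23.7, 27.7 and 31.1 (2.34, SE 0.25, adjusted p = 2.49e-06). Anxa9, an annexin, rose by 2.74 (SE 0.27) and Heyl, a Notch target, by 1.63 (SE 0.19), both without overlap.

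Immediate early genes, transcribed within minutes of a stimulus, were higher in KO-LK. Of 27 tested, 21 rose, none fell and 6 did not pass, with a median of 1.97, where 2.20% of all tested genes rose. In 17 of the 27 all KO-LK samples lay above all CT-HK samples, as in 1.66% of all genes. Between 18 and 23 of them were called under the 24 alternatives. Myc stood at 0.609, 1.29 and 2.50 CPM in CT-HK and 16.5, 31.9 and 73.4 in KO-LK (4.72, SE 0.48, adjusted p = 1.8e-06). Fos, a subunit of the AP-1 factor, stood at 387, 805 and 1485 CPM against 2877, 4484 and 4816 (2.29, SE 0.36, adjusted p = 0.000271). Both genes separated the groups completely. Klf6, Klf10 and Klf11, factors of the Kruppel-like family, rose by 1.80, 1.49 and 1.48, and Klf15 (above) was the 1 of 13 family members that fell.

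Genes of the NF-kappaB pathway followed the same direction. Of 15 tested, 9 rose and none fell, with a median of 1.79, where 2.20% of all tested genes rose. Nfkbiz, an inducible nuclear co-factor of NF-kappaB, stood at 9.18, 15.7 and 25.3 CPM in CT-HK and 47.9, 135 and 267 in KO-LK (3.13, SE 0.40, adjusted p = 2.81e-05). Nfkbia, the inhibitor that NF-kappaB itself induces, stood at 57.0, 72.0 and 90.1 CPM against 112, 332 and 568 (2.27, SE 0.39, adjusted p = 0.000707). Neither overlapped, and KO-LK samples spread over a wider range than controls. Cxcl1, a neutrophil-attracting chemokine, stood at 1.27, 3.31 and 11.3 CPM in KO-LK, highest in replicate 3, and at 0.0414, 0.255 and 0.834 in CT-HK (3.59, SE 0.71, adjusted p = 0.00235). Irf1 rose as well, from 17.0, 26.6 and 30.7 CPM to 56.5, 189 and 352 (2.98, SE 0.41, adjusted p = 6.29e-05), and was the 1 gene called among 18 of the interferon response. Over all tested genes edgeR called 5.49%, and 15.9% had an unadjusted p under 0.05. DESeq2 called 2413 of 25829 genes and limma on log2(TPM + 1) 7090 of 19668. None of 16 leukocyte markers was called with edgeR (2 at an unadjusted p under 0.05, 0 with DESeq2, 10 with limma on log2(TPM + 1)). The differences of 14 were positive, with a median of 0.45 over the 16, and their summed level was 608 to 1400 CPM in KO-LK and 523 to 1004 in CT-HK. Their part in these differences was not tested.

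Epidermal growth factor receptor signalling and injury genes were also raised in part. Of 19 genes for ligands and feedback regulators of that receptor, 5 rose and none fell, and all 19 differences were positive. Over all tested genes 2.20% rose and 3.29% fell, which applies to each list here. Tgfa, a ligand of the receptor, stood at 6.34, 9.70 and 10.6 CPM in KO-LK and 1.09, 2.60 and 3.66 in CT-HK (1.86, SE 0.26, adjusted p = 7.94e-05). Of 17 TGF-beta and YAP targets 7 rose and none fell. Itgb6, the integrin subunit that activates latent TGF-beta, stood at 80.0, 131 and 156 CPM against 26.9, 37.7 and 55.9 (1.66, SE 0.20, adjusted p = 2.02e-05). Neither Tgfa nor Itgb6 overlapped between the groups. Of 16 tubule injury genes 7 rose and 1 fell. Cdkn1a, the cell-cycle inhibitor p21, stood at 45.5, 51.4 and 59.5 CPM against 11.4, 15.8 and 21.2 (1.69, SE 0.17, adjusted p = 1.87e-06). The keratins Krt8 and Krt18, which pair in simple epithelia, rose by 1.71 (SE 0.25) and 1.57 (SE 0.24). Of 26 cell cycle genes Mcm7 alone was called with edgeR, and its call was lost under 17 alternatives.

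**Figure D3:**
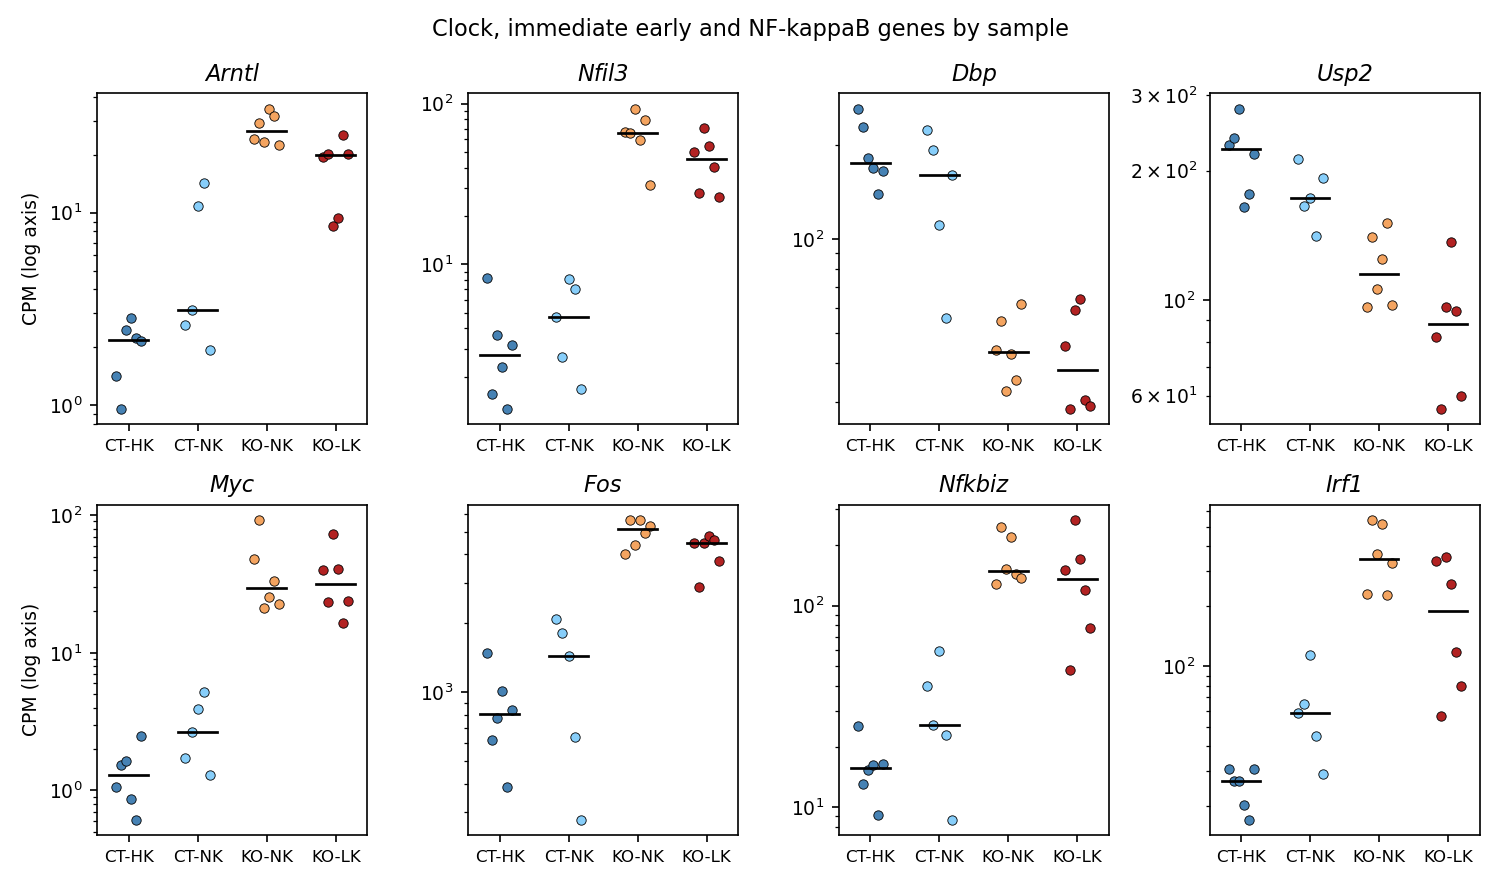
Levels (CPM, log axis) of 8 clock, immediate early, NF-kappaB and interferon genes in every sample of the 4 groups, 1 point per sample and a bar at the group median. Dbp and Usp2 are lower and Arntl, Nfil3, Myc, Fos, Nfkbiz and Irf1 higher in all KO-LK than in all CT-HK samples.

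Clock genes moved in both directions. Of 20 tested, 5 rose, 6 fell and 9 did not pass, where 2.20% of all tested genes rose and 3.29% fell. The genes that rose were Arntl, Clock, Npas2, Nfil3 and Bhlhe40, and those that fell were Dbp, Tef, Hlf, Ciart, Per3 and Usp2, some of them named here after their values were seen. Arntl, which encodes the activator BMAL1, stood at 0.951, 2.19 and 2.82 CPM in CT-HK and 8.52, 19.9 and 25.5 in KO-LK (3.10, SE 0.43, adjusted p = 6.57e-05). Nfil3, a repressor that acts through D-box elements, stood at 1.26, 2.73 and 8.30 CPM against 26.2, 45.2 and 70.9 (3.74, SE 0.44, adjusted p = 1.15e-05). Dbp, an activator of the same elements, went from 139, 175 and 262 CPM in CT-HK to 28.5, 38.1 and 64.5 in KO-LK (-2.15, SE 0.28, adjusted p = 3.76e-05). The ranges of these genes were fully apart. BMAL1 partners CLOCK or NPAS2, while Tef and Hlf are relatives of Dbp. In a daily cycle Arntl and Dbp peak at opposite phases, and the labels give no time of collection. Limma on log2(TPM + 1) called 8 of the 20 genes, 4 in each direction.

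Promoters of 2 of the lowered clock genes are shown because they repeat a clock element. In capitals are CACGTG, the E-box through which BMAL1 acts, in Ciart (GRCm38.p6, chr3:95882229-95882478, minus strand), and TTATGTAA, a D-box, in Per3 (chr4:151044666-151044915, minus strand), each over the 250 bases before the RefSeq start.
Ciart: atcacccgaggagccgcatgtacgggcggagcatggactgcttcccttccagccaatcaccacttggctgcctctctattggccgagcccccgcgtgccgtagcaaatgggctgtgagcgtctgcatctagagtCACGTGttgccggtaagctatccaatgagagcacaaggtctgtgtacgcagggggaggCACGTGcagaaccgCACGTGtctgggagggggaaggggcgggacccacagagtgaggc
Per3: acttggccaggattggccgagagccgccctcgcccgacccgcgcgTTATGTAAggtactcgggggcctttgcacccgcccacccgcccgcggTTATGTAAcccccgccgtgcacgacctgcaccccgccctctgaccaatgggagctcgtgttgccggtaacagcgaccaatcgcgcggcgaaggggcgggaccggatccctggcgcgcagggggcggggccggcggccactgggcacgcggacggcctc
The Ciart copies begin 116, 58 and 44 bases before the start and those of Per3 205 and 158. Of all genes with a promoter, 8.09% held CACGTG and 1.11% held TTATGTAA, on either strand. These shares, and the gene counts that follow, cover windows that also run past the start. Of the 10 called clock genes with a promoter in the table, 2 held the E-box (Ciart and Tef) and 1 the D-box. The Sgk1 window above also holds a CACGTG, beginning 246 bases before its start.

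Mitochondrial energy genes were lower almost without exception. Of 36 nuclear genes for respiratory complex I 35 fell, and of 37 for complexes II to V 36 fell, where 3.29% of all tested genes fell. The medians were -0.87 and -0.92. In 29 and 31 genes all KO-LK samples lay below all CT-HK samples, as in 2.33% of all genes. Ndufb8, a complex I subunit, stood at 253, 299 and 386 CPM in KO-LK and 494, 662 and 751 in CT-HK. Sdhb, the iron-sulphur subunit of complex II, stood at 254, 358 and 435 CPM against 641, 834 and 962, and Uqcrq, of complex III, at 159, 188 and 263 CPM against 340, 438 and 570. In all 3 genes the groups were apart (-1.02, -1.20 and -1.17, adjusted p = 0.000314, 9.33e-05 and 0.000165). The differences were narrow in range, from -0.56 to -1.07 in complex I. Fewer passed on log2(TPM + 1), with 15 and 18 called, all lower, and medians of -0.29 and -0.33 where the median of all genes was 0.36.

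The same direction held for the mitochondrial genome. Of its 13 protein-coding genes 10 fell, with a median of -0.96, where 3.29% of all tested genes fell. mt-Nd4l, a complex I subunit, stood at 159, 208 and 301 CPM in KO-LK and 354, 508 and 599 in CT-HK (-1.19, SE 0.24, adjusted p = 0.00245). The mitochondrially encoded share of all counts was 10.4% ± 2.06 (SD, n = 6) in KO-LK and 15.6% ± 3.42 in CT-HK (exact permutation test, p = 0.00649, adjusted 0.0909). It ranged from 7.93% to 13.3% in KO-LK and from 13.0% to 21.5% in CT-HK, so the highest KO-LK sample lay above the lowest control. Leaving out 1 sample gave 4 to 10 calls of 13, at most 6 of them without KO-LK replicate 1, 2, 3 or 6 or CT-HK replicate 2, 5 or 6, while the list's median stayed between -1.10 and -0.87. Without the 2 CT-HK samples richest in proximal tubule transcripts 1 gene was called, at a median of -0.86. The nuclear lists had 31 to 36 and 30 to 37 calls over the alternatives fitted to counts.

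Enzymes that feed the respiratory chain fell alongside. Of 15 citric acid cycle genes 12 fell and none rose, Idh2, the mitochondrial NADP-dependent isocitrate dehydrogenase, most strongly by p, from 1022, 1255 and 1473 CPM in CT-HK to 404, 584 and 650 (-1.15, SE 0.20, adjusted p = 0.000602). Of 22 genes of fatty acid, ketone and pyruvate metabolism, 11 fell and 1 rose. Over all tested genes 3.29% fell and 2.20% rose. Bdh1 and Oxct1, which interconvert and activate ketone bodies, stood at 7.71, 10.1 and 12.1 and at 301, 453 and 595 CPM in KO-LK, against 30.2, 47.7 and 61.8 and 957, 1293 and 1408 in CT-HK. Both were apart (-2.17, SE 0.25, and -1.44, SE 0.21). The gene that rose was Pdk4, the kinase that shuts off pyruvate dehydrogenase, at 31.1, 51.0 and 57.4 CPM against 9.24, 13.4 and 20.4 (1.73, SE 0.31, adjusted p = 0.000926).

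Amino acid enzymes and mitochondrial carriers stood among the 12 genes that fell with the smallest p. Bcat2, the mitochondrial enzyme that starts branched-chain amino acid breakdown, stood at 104, 157 and 177 CPM in KO-LK and 325, 475 and 581 in CT-HK (-1.68, SE 0.18, adjusted p = 3.92e-06). Kyat3, a kynurenine aminotransferase, fell from 46.9, 53.6 and 61.0 CPM to 14.3, 19.6 and 24.1 (-1.51, SE 0.15, adjusted p = 9.18e-07). Slc25a35, Slc25a29 and Slc25a33, carriers of the inner mitochondrial membrane, differed by -1.71, -1.68 and -1.32. None of these 5 genes overlapped between the groups. Fkbp11, a prolyl isomerase of the endoplasmic reticulum, fell by 1.86 on the log2 scale (SE 0.18), and Herpud1, a component of degradation there, by 1.16 (SE 0.18). In the stress and unfolded protein list 2 of 16 genes rose, Atf4 and Ppp1r15a, and Herpud1 fell. The shares over all tested genes were 2.20% higher and 3.29% lower.

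**Figure D4:**
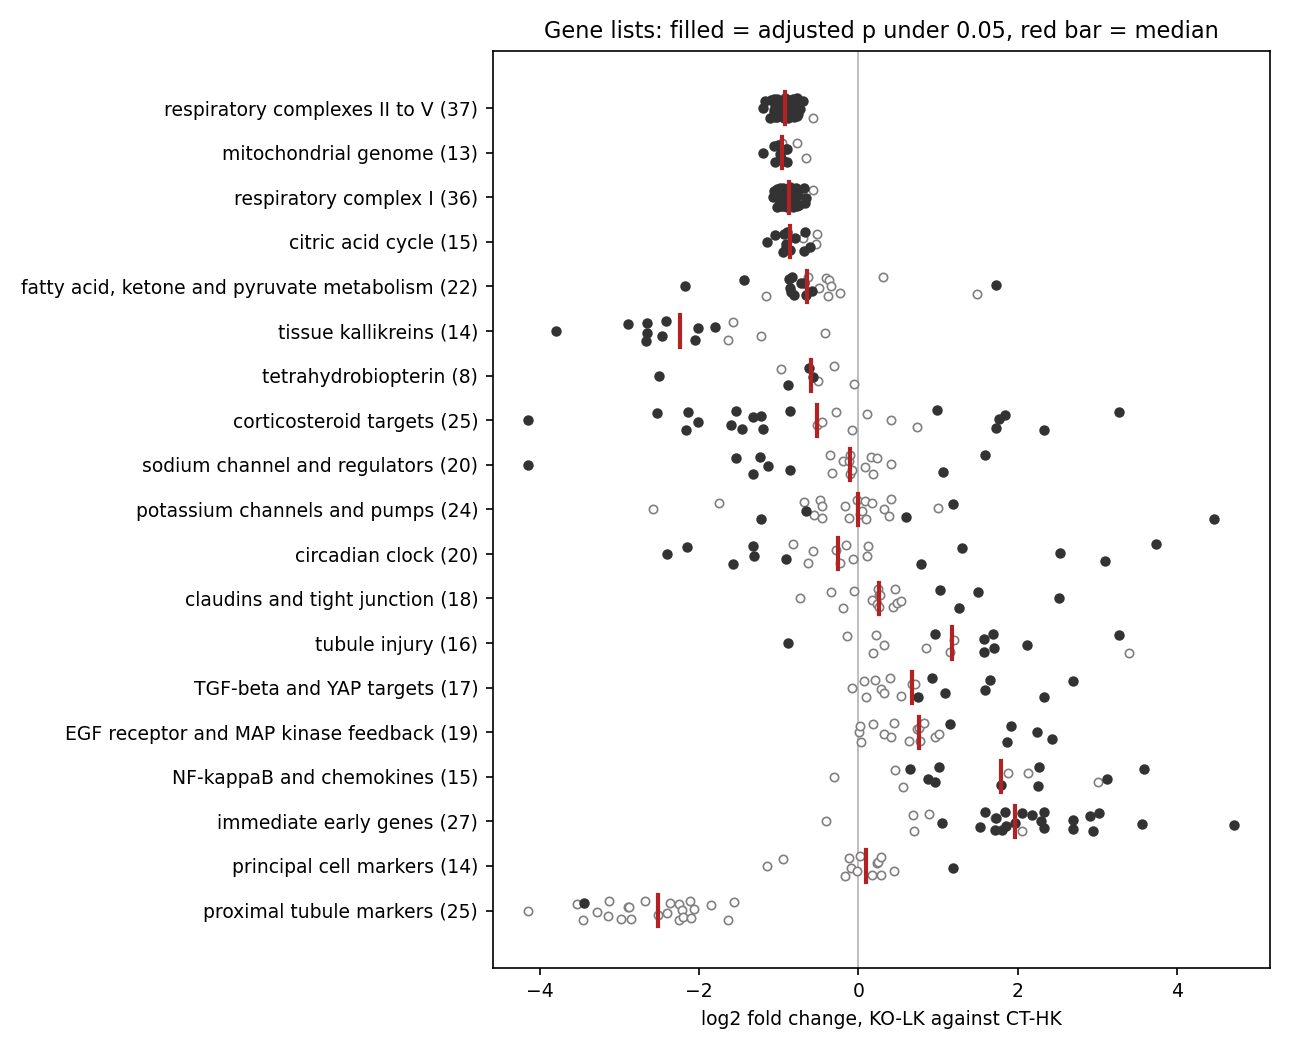
Log2 difference, KO-LK against CT-HK, of each tested member of 19 gene lists (number tested in brackets), with filled points for an adjusted p under 0.05 (edgeR) and a red bar at the list's median. The respiratory lists sit in a narrow band around -0.87 to -0.92, the immediate early genes spread around a median of 1.97, and the proximal tubule markers lie around -2.51 with 1 call.

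Markers of neighbouring cells were read beside these results. All 25 proximal tubule markers had negative differences, with a median of -2.51. An unadjusted p under 0.05 was found in 20 of them and in 15.9% of all tested genes. Miox alone was called with edgeR, where DESeq2 called 10 and leaving out 1 sample gave 0 to 2. The Miox difference shrank to -0.29 (adjusted p = 1) without CT-HK replicate 6. Slc34a1, the proximal phosphate transporter, stood at 47.0, 80.5 and 180 CPM in KO-LK and 27.9, 75.3 and 4420 in CT-HK, so that without that sample the sign turned (0.27). It passed with DESeq2 (-3.21, adjusted p = 0.0142) and with the stricter filter (-3.07, adjusted p = 0.0498). The list's median was 0.49 without that sample. Slc12a3, the thiazide-sensitive cotransporter of the distal convoluted tubule, ranged from 4.94 to 600 CPM in KO-LK and from 6.33 to 334 in CT-HK. None of 10 endothelial and 12 fibroblast markers was called with edgeR or DESeq2, and 0 had an unadjusted p under 0.05. Over all tested genes edgeR called 5.49%. Without CT-HK replicate 6, 1201 genes differed, and without the 2 CT-HK samples richest in proximal tubule transcripts 768 did. Only replicate 6 stood apart, as the other CT-HK samples held 360 to 1127 CPM on these markers. The fit without 2 samples thus also lost a control that was not rich in them. With proximal tubule markers as a covariate 1494 genes were called, and 1365 of the 1418 kept their call.

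The knockout was also compared with its control on the normal diet, in samples that share nothing with those above. KO-NK against CT-NK called 439 genes (1.70%), 242 (0.937%) higher and 197 (0.763%) lower. Of these, 340 were called in the same direction between KO-LK and CT-HK and none in the opposite one, which is 77.4% of the 439 and 24.0% of the 1418. Fitted apart, so that the comparisons shared no estimate of spread, 136 genes were called in both, 84.5% of 161 and 8.71% of 1561. Of the 568 genes higher in KO-LK 96.8% had a positive difference on the normal diet, where 63.4% of all genes did, and of the 850 lower ones 98.0% a negative difference. Median differences were 1.10 and 0.72 in the 568 genes, and -0.87 and -0.55 in the 850. The genes were selected on the first value of each pair, so these medians do not compare the diets.

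**Figure D5:**
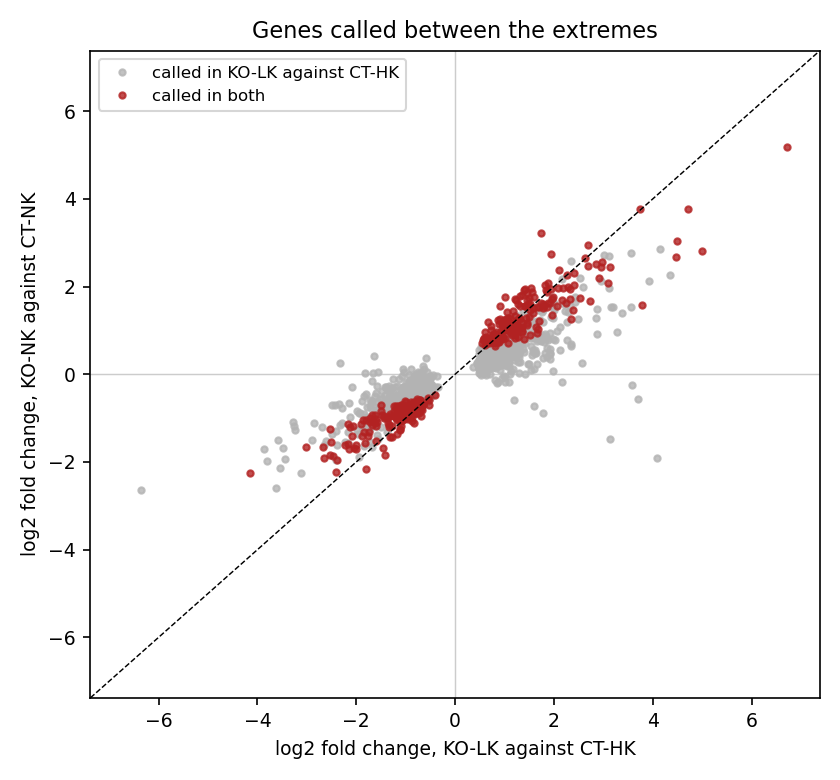
The 1418 genes called in KO-LK against CT-HK, with the log2 difference of that comparison on the x axis and of KO-NK against CT-NK on the y axis, red where also called there (340 genes) and with a dashed line of equality. All red points have the same sign on both axes.

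No gene passed a test of the difference between these comparisons with edgeR, where 634 genes (2.45%) had an unadjusted p under 0.05. DESeq2 called 11, and a stricter filter, limma on log2(TPM + 1) and the fit without CT-HK replicate 6 each called 1. The 8 genes of smallest p are thus candidates that failed the correction. Sprr1a, Spns2, Stc1, P2ry1, Heyl and Spink12 had a larger difference between the extremes than on the normal diet. Stc1 differed by 3.78 against 1.58 (SE of the difference 0.45, unadjusted p of the difference 5.2e-05, edgeR). P2ry1 differed by -3.02 against -1.66, and Spns2, a sphingosine-1-phosphate transporter, by 1.48 against 0.24. Dcn, a fibroblast proteoglycan, differed by -0.02 and -2.15, with fibroblast markers up to 305 CPM in CT-NK and at 23.7 to 52.1 in CT-HK. Sgk1, Scnn1a and Calb1 differed by -4.14, -1.53 and -2.53 between the extremes and by -2.24, -0.82 and -1.24 on the normal diet, and Nedd4l by 1.07 and 1.12, with unadjusted p-values of the difference of 0.0004, 0.06, 0.0076 and 0.84. Diet within controls or within knockouts gave no calls with edgeR in CT-HK against CT-NK (927 genes, 3.59%, at unadjusted p under 0.05, and 20 with DESeq2) or in KO-LK against KO-NK (732 genes, 2.83%, and 25 with DESeq2). With the stricter filter edgeR called 1 and 6 genes, and limma called 0 and 1. Without CT-HK replicate 6 the comparison of CT-HK with CT-NK called 169 genes. Without the 2 CT-HK samples richest in proximal tubule transcripts it called 1.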

How the data were processed

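RNA of 23 samples was sequenced after SMART-Seq HT cDNA synthesis and Nextera XT library preparation, per the labels' protocols. Reads were quantified with Salmon 0.14.10 against GRCm38.p6, per the submitters' processing notes. The authors deposited expected counts per gene, 35.9% of them not whole, and, in a second deposited table, TPM, which are shares of transcripts scaled by length. Expected counts were rounded here. Both tables hold 54393 genes. Without strand information, reads of a gene and an antisense partner cannot be told apart.

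The main test was edgeR 4.0.16 (R 4.3.3): TMM scaling, filterByExpr, 1 mean per group over all 23 samples, quasi-likelihood tests, Benjamini-Hochberg adjustment and a threshold of 0.05, over 25829 genes with 19 residual degrees of freedom. Unless another tool is named, adjusted p-values come from it. The KO-LK against CT-HK contrast answers the comparison of the extremes, KO-NK against CT-NK was fitted beside it, and their difference was tested. Measures of single samples were compared with an exact two-sided permutation test, whose smallest p is 0.00216. No duplicated pair was found among 55 pairs within groups.

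Named genes were Nr3c2, 12 genes in each direction (smallest p among those with a log2 difference of 1 or more either way and a mean of 5 CPM or more where higher), as many as 4 called genes for each of 38 lists, 16 transport genes, and 8 genes of the difference. A gene that this rule names is not reported here. Other list members were named after their values were seen. The samples and lists were chosen with earlier results of these data known. Promoters come from RefSeq (GRCm38.p6), where 92 of 116 named genes matched, and gene positions from GENCODE M21. Alternatives were DESeq2 1.42.0, its size factors, other filters, limma 3.58.1 on log2(TPM + 1), a length offset, a replicate block, other sample sets and a proximal tubule covariate. A second TMM reference and leaving out the 2 CT-HK samples richest in proximal tubule transcripts were chosen after seeing the data. Of those 2 samples only replicate 6 stood apart in these transcripts. The fits were tested on simulated data.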

Additional observations from a re-analysis of the deposited data

Results flagged for a closer look

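In each named gene and summed marker list, the highest and lowest of a group's 6 samples were set against the gap to their nearest neighbour, and 22 of 260 groups held a sample that stood apart by Dixon's criterion. Chance alone flags about 1 in 20 groups if values are normal. CPM need not be normal and the genes share the same samples, so the rate here is not known. The part of the sample's makeup in these values was not tested.

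CT-HK replicate 6 stood above its group for summed proximal tubule (42801 CPM), podocyte (238 CPM) and fibroblast markers (52.1 CPM), for the proximal tubule genes Slc34a1 (4420 CPM) and Miox (2168 CPM), and for Qdpr (336 CPM) and Rasl11a (7.44 CPM). CT-HK replicate 4 stood apart in its TMM factor (1.14), above its group in Kcnma1 (5.25 CPM), and below it in Avpr1a (30.2 CPM), Cldn6 (4.17 CPM) and Mcm7 (8.12 CPM). CT-HK replicate 1 was high for Nfil3 (8.30 CPM), Cldn4 (350 CPM) and Ppp1r15a (129 CPM), and replicate 2 for Fxyd4 (213 CPM). In KO-LK, replicate 3 was low for Fkbp11 (4.86 CPM) and high for Spry1 (94.2 CPM) and Cxcl1 (11.3 CPM). KO-LK replicate 1 was high for Atp12a (59.9 CPM), replicate 2 for Mcm7 (29.3 CPM) and replicate 4 for Scnn1a (203 CPM).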

How the results depend on the processing

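The count of genes that differed between KO-LK and CT-HK was 1418, and under the alternatives that moved it by more than 1.5 times it was 2413 (DESeq2), 890 (no low-count filter), 3104 (at least 5 CPM in 5 samples), 7090 (limma on log2(TPM + 1)) and 768 (without the 2 CT-HK samples richest in proximal tubule transcripts, chosen after seeing the data). Leaving out 1 sample gave 1024 to 1608. Genes called also between KO-NK and CT-NK numbered 340, and 802, 180, 1572 and 3009 under the first 4 of these settings, 136 with only the groups compared in each fit, and 277 to 379 without 1 sample. The difference of the comparisons had 0 calls, and 11 with DESeq2, 1 with the strict filter, 1 with limma, and 0 to 1 without 1 sample (1 without CT-HK replicate 6). With the replicate number as a block 1074 genes were called. Same-numbered samples of the 2 groups deviated in opposite directions (r from -0.702 to -0.127), so no pairing by the labels' numbers was seen. The best r with another number was higher each time, but it is the largest of several and decides little. Higher genes made up 32.1% to 45.6% of the calls in 9 alternatives and in those without 1 sample, 96.6% with limma, 55.8% with the length offset and 61.2% with CT-HK replicate 4 as TMM reference, which narrowed the log2 gap in TMM factors between KO-LK and CT-HK from 0.316 to 0.208. The median of all genes was 0.15 without CT-HK replicate 4 and 0.11 without the 5 samples richest in olfactory and vomeronasal receptor counts.

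Of the 106 called named genes, 23 lost the call somewhere and 3 changed sign, all with limma: P2rx4 (0.098), Pcbd2 (0.038) and Eif2s3y (0.042). Eif2s3y, a gene of the Y chromosome, was lower in KO-LK with edgeR, with log2 differences of -0.65 to -0.51 without 1 sample. The labels do not state the sex of the mice, and its part in this difference was not tested. The other sign changes concern genes that were not called. Kcnj1 turned to -0.015 with DESeq2 and its size factors and -0.022 without the 2 CT-HK samples, and ranged from -0.08345 to 0.13 without 1 sample. Slc26a4 turned to -0.018 with DESeq2 and its size factors and -0.005732 with the proximal tubule covariate, and ranged from -0.06009 to 0.10. Scnn1b turned to 0.47 with limma and 0.00967 with the other TMM reference. Dcn turned to 0.41 with limma, 0.060 with the length offset and 0.063 with the other TMM reference, and ranged from -0.27 to 0.13. Kcnma1 turned to -0.024 without the 2 CT-HK samples and ranged from -0.27 to 0.86, and Slc34a1 turned to 0.58 and ranged from -3.431 to 0.27. The cause of these changes was not tested. Kcnma1 had few counts, at 0.214 to 5.25 CPM.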
